A study of Mus musculus with 186 samples.

Results

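The immediate early genes examined here were Fos, Fosb, Jun, Junb, Jund, Egr1, Atf3, Ier2, Nr4a1 and Dusp1, 10 of the 25275 genes with a symbol in the count files. They were chosen by name and not by a measured value, although earlier results of these data were known when they were chosen. All 10 passed the filter on low counts, as did 14772 genes in all. The counts came from single epithelial cells of the adult FVB/NJ mouse mammary gland, untreated, female and freshly sorted, 96 of them labelled basal and 90 luminal. Both were negative for Ter119, CD31 and CD45, which mark red cells, endothelium and leukocytes. Basal cells were further chosen as CD24+ and high for the integrin CD29, and luminal cells as CD24+ and low for CD29. Each cell was captured in its own chamber of the Fluidigm C1, a microfluidic chip that turns the polyadenylated RNA of a cell into full-length cDNA. The cells came from 8 mice, but the labels tie no cell to a mouse and do not say whether the populations shared mice. Each population therefore counted as 1 sample, no difference below has a replicate check, and no test was made. PCR plate A held basal cells, plate C luminal cells, and plate B some of each.

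After low-coverage cells were removed, 72 basal cells (50 on plate A, 22 on plate B) and 76 luminal cells (24 on plate B, 52 on plate C) were left. Their depth ran from 69933 to 1968860 reads in basal and from 105636 to 3226961 reads in luminal cells. Summed over each population, the lineage markers went with the labels. All 8 basal markers were higher in basal cells (log2 ratio of luminal over basal from -7.45 to -2.95) and all 8 luminal markers were higher in luminal cells (3.10 to 6.88). At full depth, 3 single cells had no more markers of their own lineage than of the other. Basal cell 90 had reads of 2 basal and 6 luminal markers, basal cell 72 of 3 and 5, and luminal cell 63 of 7 and 7. Without these 3 cells the members' median ratio of luminal over basal, described further on, was 1.00 in place of 1.01. On plate B it was 1.37 in place of 1.33, and 6 members in place of 5 were past 2-fold towards luminal cells. With every cell, 41.4% of all genes were past it there. Which cells stood out depended on depth. At 50000 reads basal cell 72 had 2 basal and 1 luminal markers. At that depth basal cells 13 (6 and 6) and 82 (1 and 1) had no more basal than luminal ones. In 2 basal and 3 luminal cells, over 50% of reads were mitochondrial.

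Immediate early genes are transcribed within minutes of a stimulus without new protein synthesis, because the factors that switch them on are already in the cell. Mitogens, signalling through ERK kinases, act on serum response factor and its ELK partners, while stress kinases and cyclic AMP act on JUN, ATF and CREB proteins. Dissociation of a tissue into single cells is itself known to raise these transcripts, so in sorted cells they are read both as a sign of handling and as a sign of activation. The counts here hold no undissociated control, and the part of handling in the levels was not tested.

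Sequence upstream of the start was searched for the cyclic AMP response element (CRE), to which CREB and ATF proteins bind, and for 3 sites of other early response factors, to show which members carry them near the start. A RefSeq promoter (GRCm38.p6) was given for 8 of the 10 members, all but Egr1 and Ier2. The CRE half-site TGACGT, searched on both strands in the 250 bases before the start that the RefSeq table gives, was found in 3 of the 8, against 6.47% of 32851 promoters. These 3 windows are shown 5′ to 3′ on the strand of the gene, with the matches in capitals. They are Fos (chr12:85473640-85473889, plus strand), Atf3 (chr1:191183334-191183583, minus strand) and Dusp1 (chr17:26508473-26508722, minus strand).
Fos: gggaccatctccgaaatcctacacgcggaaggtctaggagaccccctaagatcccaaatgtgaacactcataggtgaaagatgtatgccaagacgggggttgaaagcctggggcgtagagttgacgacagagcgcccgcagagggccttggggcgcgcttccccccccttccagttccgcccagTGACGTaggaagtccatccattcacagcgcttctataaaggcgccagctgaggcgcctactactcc
Atf3: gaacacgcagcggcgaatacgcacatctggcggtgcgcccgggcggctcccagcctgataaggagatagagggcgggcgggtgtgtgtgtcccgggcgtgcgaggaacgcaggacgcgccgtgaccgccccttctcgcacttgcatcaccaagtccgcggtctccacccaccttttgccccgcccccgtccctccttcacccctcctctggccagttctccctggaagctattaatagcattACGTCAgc
Dusp1: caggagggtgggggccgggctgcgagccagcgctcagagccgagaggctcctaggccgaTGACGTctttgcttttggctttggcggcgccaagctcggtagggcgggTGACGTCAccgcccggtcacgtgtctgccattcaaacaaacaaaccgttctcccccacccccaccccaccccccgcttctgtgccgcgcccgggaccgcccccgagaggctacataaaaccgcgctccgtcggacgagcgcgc
In Fos the match began 66 bases before the start. In Atf3 it began 8 bases before the start and lay on the other strand, so that it reads ACGTCA as printed. Dusp1 held 3 matches, 191, 143 and 141 bases before the start, of which the last pair overlap as the full palindrome TGACGTCA, a sequence in 1.55% of all promoters. The AP-1 site TGANTCA and the CArG box of serum response factor were in none of the 8 windows (6.75% and 1.47% of all promoters). The EGR site GCGNGGGCG was in those of Fosb and Nr4a1 (4.70% of all). Both of these windows belong to a start inside the outer limits of the gene, as the Nr4a1 window (chr15:101266596-101266845) lies within the gene and the Fosb window (chr7:19310046-19310295) overlaps its end. A match is a run of letters and not a shown binding site, and 250 bases leave out more distant elements.

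Of the 10 members, 9 had a higher summed level in luminal cells and 1, Egr1, in basal cells. Of the 14772 genes kept, 8466 were higher in luminal and 6306 in basal cells. A summed level is the reads of a gene over all cells of a population in CPM, the usual scaling of counts to the total of the library, and ratios are log2 of luminal over basal with 1 CPM added to each. Fos, Jun, Junb, Jund and Atf3 were at least 2-fold higher in luminal cells, and no member was 2-fold higher in basal cells. Over all genes kept, 28.4% were at least 2-fold higher in luminal and 18.3% in basal cells. The members' median ratio was 1.01, against 0.18 over all genes. With TMM factors, which brought the median of all genes to 0.03, the members' median was 0.79 and 4 were past 2-fold, Atf3 dropping to 0.80. By these factors 25% of all genes were 2-fold higher in luminal and 21.1% in basal cells. Without luminal cell 8, which held the highest levels, 4 were past 2-fold and Atf3 was at 0.87.

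Together the 10 genes took 0.489% of all basal reads and 0.793% of all luminal reads. Egr1 supplied 34.0% of the member reads in basal cells, ahead of Fos with 23.8%. In luminal cells Fos supplied 35.6% and Egr1 18.0%. Share of reads depends on transcript length, so members were ordered by RPKM (CPM per kilobase of exon). In basal cells Fos (555 RPKM) and Egr1 (540) led, ranked 80 and 85 of the 14772 genes, followed by Atf3 (397), Fosb (192), Dusp1 (73.2), Jun (71.8), Junb (39.8), Ier2 (29.0), Nr4a1 (21.5) and Jund (5.91). In luminal cells Fos (1347, rank 29) and Atf3 (807, rank 62) led, followed by Egr1 (464), Fosb (242), Jun (181), Junb (109), Dusp1 (95.4), Ier2 (58.6), Nr4a1 (33.4) and Jund (14.6). With 1 sample a population there is no replicate spread by which to separate neighbours in either order. Cell by cell, the leading member by RPKM was Fos in 29 of 72 basal and 45 of 76 luminal cells, Atf3 in 16 and 23, and Egr1 in 19 and 3.

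Fos (Entrez 14281, chromosome 12, 85473890 to 85477274) encodes the founding FOS subunit of the AP-1 transcription factor. Its level ran from 0 through a median of 634 to 16823 CPM over basal cells, and from 11.2 through 1376 to 25081 CPM over luminal cells. Reads were found in 70 of 72 basal cells and in all 76 luminal cells, so the populations overlapped over nearly their whole range. The summed levels were 1161 CPM in basal with a 95% exact Poisson interval of 1154 to 1168, and 2819 CPM in luminal cells, 2810 to 2829. The ratio was 1.28, and on plate B alone it was 2.00. The 8 highest basal cells held 50.8% of the basal CPM summed over cells, basal cell 25 being the highest, and the 8 highest luminal cells held 41.8%. Without the top cell of each population the ratio was 1.31, and 1.74 on plate B. When every cell weighed the same it was 0.90.

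Fosb (Entrez 14282, chromosome 7, 19302696 to 19310118) encodes a second FOS subunit. Basal cells ran from 0 through 404 to 10186 CPM and luminal cells from 0 through 722 to 3741 CPM. The highest cell was basal cell 82, on plate B, with 10.8% of the basal reads. That cell had 762 genes and 1 basal marker at 50000 reads, and 19.4% of its reads were mitochondrial. Summed, Fosb stood at 723 and 912 CPM and the ratio 0.33. On plate B the direction turned, at -0.08, and without the top cells it was 0.11, so Fosb gave no steady direction.

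Jun (Entrez 16476, chromosome 4, 95049036 to 95052222) encodes the partner with which FOS proteins form AP-1. Basal cells ran from 0 through 124 to 2843 CPM and luminal cells from 4.36 through 360 to 4619 CPM. At least 100 CPM were reached by 42 of 72 basal and 66 of 76 luminal cells. Summed over cells, Jun stood at 229 CPM (225 to 232) and 578 CPM (574 to 583), the ratio was 1.33, and on plate B it was 1.67 (1.39 without the top cells). Luminal cell 8, the highest luminal cell for both, held 31.6% of the plate B luminal Jun reads and 28.1% of those of Fos.

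Junb (Entrez 16477, chromosome 8, 84976909 to 84978748) and Jund (Entrez 16478, chromosome 8, 70697739 to 70700616) encode the other JUN proteins, both weaker activators than JUN in many settings. Junb ran from 0 through 39.0 to 624 CPM over basal cells and from 0 through 110 to 2104 CPM over luminal cells. Its summed levels were 73.3 and 201 CPM, a ratio of 1.44 and of 2.18 on plate B. Jund, which unlike the rest of its family is known for steady expression in resting cells, ran from 0 through 12.9 to 114 CPM and from 2.02 through 32.1 to 369 CPM. Its summed levels were 17.0 and 42.0 CPM, a ratio of 1.25 and of 2.00 on plate B. Both genes were still over 2-fold higher in luminal cells when the top cells were left out, at 1.38 and 1.29 over all plates and at 2.16 and 2.08 on plate B.

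Egr1 (Entrez 13653, chromosome 18, 34861207 to 34864956) encodes a zinc finger factor that is among the quickest responders to growth factor signalling. It ran from 0 through 868 to 19682 CPM over basal cells and from 0 through 670 to 11721 CPM over luminal cells. Few cells were in between. Of the basal cells 62 had at least 100 CPM, 2 had 10 to 100 and 8 had under 10, and of the luminal cells 56, 8 and 12. The summed levels were 1659 CPM (1651 to 1668) and 1425 CPM (1418 to 1432), and the ratio of -0.22 was the only one below 0. On plate B it was 0.02, and 0.35 without the top cells, of which basal cell 66 alone held 36.8% of the plate B basal reads. Basal cell 66 had 661 genes at 50000 reads, where the median of basal plate B was 1576.

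Atf3 (Entrez 11910, chromosome 1, 191170296 to 191183333) encodes a CREB family factor known as a general stress responder. It ran from 0 through 306 to 12131 CPM over basal cells and from 1.25 through 1100 to 12082 CPM over luminal cells. The median luminal cell thus stood above the third quartile of the basal cells, 994 CPM. The summed levels were 785 CPM (780 to 791) and 1595 CPM (1588 to 1603), with a ratio of 1.02 and of 1.00 on plate B, just short of 2-fold. Without cells that held markers of another cell type, described further on, the ratio was 0.70.

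Nr4a1 (Entrez 15370, chromosome 15, 101253902 to 101274795) encodes an orphan nuclear receptor. It ran from 0 through 5.04 to 884 CPM over basal cells and from 0 through 8.94 to 1608 CPM over luminal cells, and 27 cells of each population had no read. The summed levels were 53.3 and 82.8 CPM, a ratio of 0.63. A few cells set these sums. Luminal cell 70 held 31.4% of all luminal reads and luminal cell 17 held 69.1% of those on plate B. On plate B the ratio was 0.47, and it turned to -0.33 without the top cells.

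Ier2 (Entrez 15936, chromosome 8, 84661331 to 84662852) encodes a small nuclear protein of the early response. It ran from 0 through 5.41 to 499 CPM and from 0 through 34.8 to 886 CPM. Summed, Ier2 stood at 44.2 CPM (42.8 to 45.6) and 89.3 CPM (87.5 to 91.0), a ratio of 1.00 that lay just under the 2-fold limit, and of 0.70 on plate B. Without cells holding markers of another type it was 1.70.

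Dusp1 (Entrez 19252, chromosome 17, 26505591 to 26508472) encodes a phosphatase that inactivates MAP kinases and so feeds back on the signals that induce the others. It ran from 0 through 2.91 to 1236 CPM over basal cells and from 0 through 13.2 to 4672 CPM over luminal cells. The cells fell apart into low and high ones, with 39 basal cells under 10 CPM, 7 from 10 to 100 and 26 at 100 or more, and 36, 13 and 27 luminal cells. Summed, Dusp1 stood at 142 and 185 CPM, a ratio of 0.38. Luminal cell 8 held 37.6% of the luminal reads, and without it and the top basal cell the ratio was -0.10. On plate B the ratio was 3.48, from 32.6 CPM (basal) against 372 CPM (luminal), and 2.78 without the top cells.

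**Figure D1:**
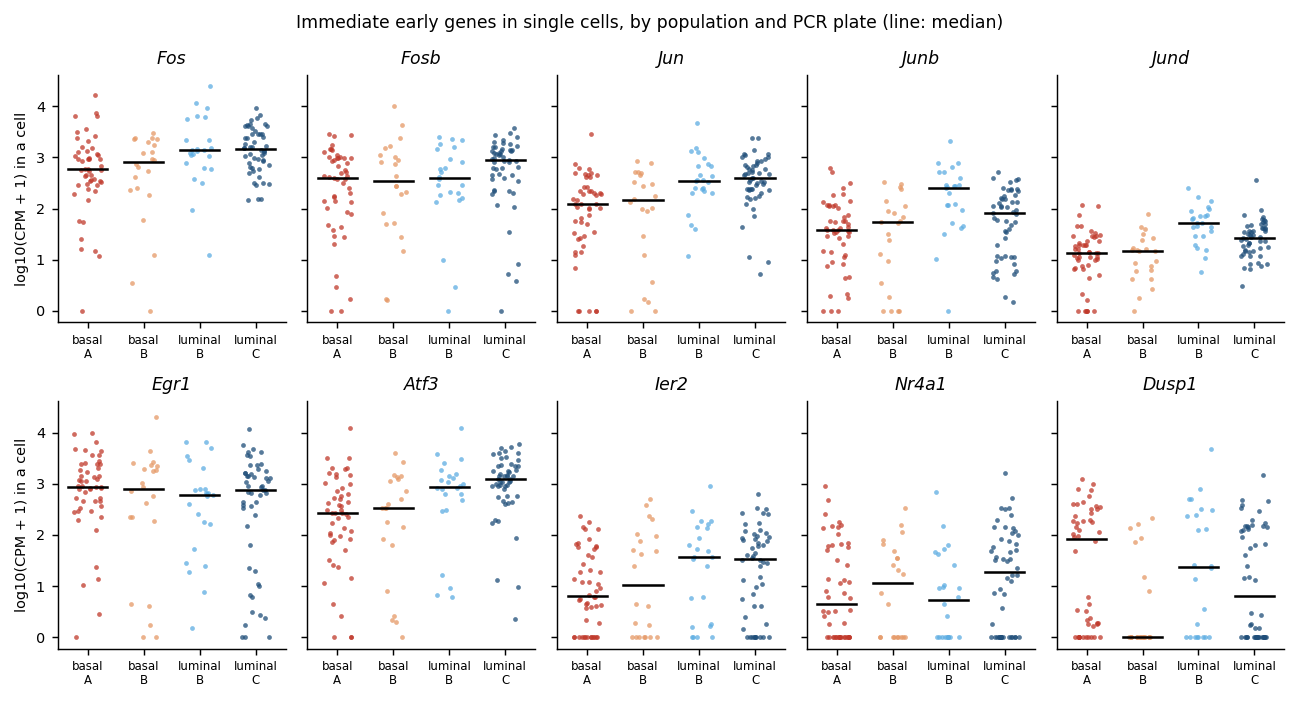
Level of each gene in each of the 148 cells, as log10(CPM + 1) at full depth, by population and PCR plate, with a point per cell and a line at the median of the log values. Fos, Egr1, Atf3 and Fosb stand highest in all 4 sets, while the basal plate B median of Dusp1 is 0.

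**Figure D2:**
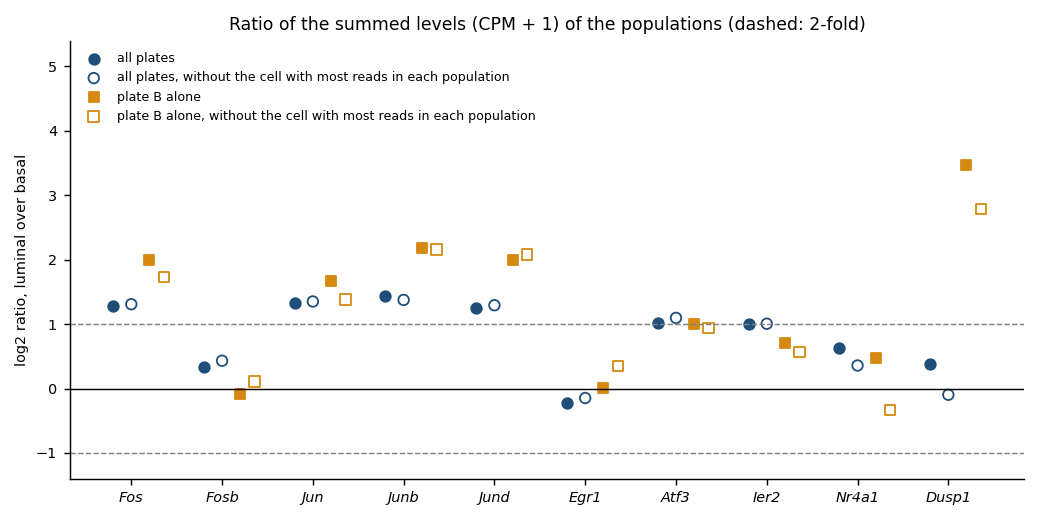
The log2 ratio of the summed levels, luminal over basal with 1 CPM added, for all plates and for plate B alone, each with every cell and without the cell with most reads of the gene in each population, with dashed lines at 2-fold. Jun, Junb, Jund and Fos lie above 2-fold in all 4, and Dusp1, Nr4a1, Egr1 and Fosb change sign.

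Depth differs between cells, so the share of cells with a read was taken after each was thinned to 50000 reads, at which 1 read is 20 CPM. Fos was found in 94.4% of basal cells (68 of 72, exact Clopper-Pearson 95% interval 86.4 to 98.5%) and 98.7% of luminal cells (92.9 to 99.97%). Jun was found in 83.3% (72.7 to 91.1%) and 96.1% (88.9 to 99.2%), Junb in 66.7% (54.6 to 77.3%) and 82.9% (72.5 to 90.6%), and Jund in 48.6% (36.7 to 60.7%) and 68.4% (56.7 to 78.6%). Atf3 was found in 81.9% (71.1 to 90.0%) and 93.4% (85.3 to 97.8%). Egr1 alone was found in fewer luminal than basal cells, 78.9% (68.1 to 87.5%) against 88.9% (79.3 to 95.1%). For Fosb the shares were 87.5% and 92.1%, for Ier2 48.6% and 53.9%, for Nr4a1 33.3% and 43.4%, and for Dusp1 45.8% and 46.1%. For every member the intervals of the populations overlapped, which is not a test and does not show that the shares were equal. At full depth all members but Ier2, Nr4a1 and Dusp1 were found in at least 90.3% of the cells of either population. These intervals treat cells as independent draws, and cells of a population share mice, chips and plates. Those of the levels treat reads as independent, which reads without molecular identifiers are not. Neither kind covers the spread between mice.

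**Figure D3:**
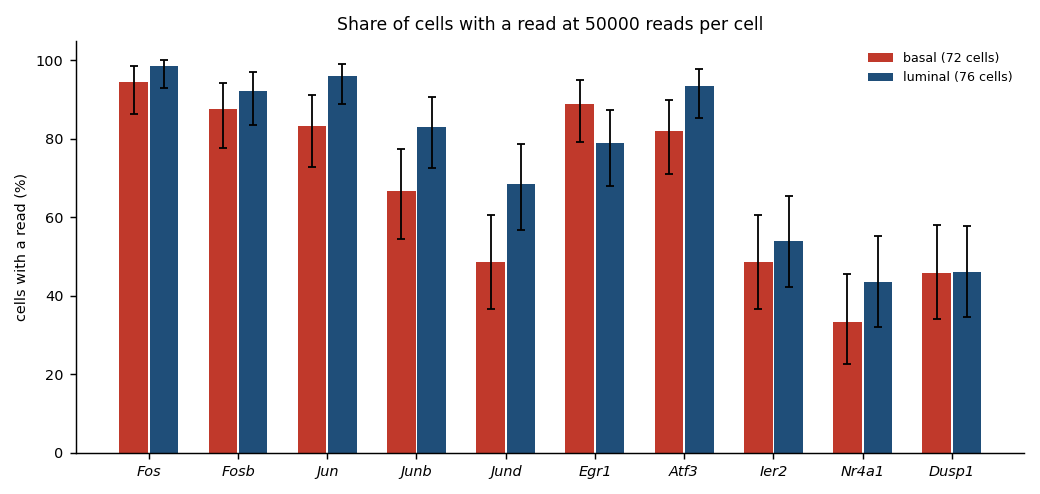
Share of cells with at least 1 read of each gene after thinning to 50000 reads, for 72 basal and 76 luminal cells, with exact 95% binomial intervals as error bars. Shares run from 33.3% (Nr4a1 in basal cells) to 98.7% (Fos in luminal cells). The intervals of the populations overlap for each gene, which is not a test of a difference.

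Plates of a population differed for some members as much as the populations did. On plate B alone, which carried both populations, 5 members were at least 2-fold higher in luminal cells (Fos, Jun, Junb, Jund and Dusp1) and 0 in basal cells, against 41.4% and 17.2% of all genes, and the members' median was 1.33 against 0.48. With TMM factors 4 were, against 34.1% of all genes, and 6 rather than 9 members were above 0. By library totals 9302 of the 14772 genes were above 0 on that plate. Between the basal plates 1 member was at least 2-fold higher on plate A and 0 on plate B, against 41.7% and 13.6% of all genes. That member was Dusp1, with 197 CPM on plate A and 32.6 CPM on plate B (log2 ratio 2.56), and a read in 56.0% and 22.7% of cells at 50000 reads. The members' median between basal plates was 0.06 where that of all genes was 0.57. TMM factors brought the latter to 0.15 and the members' median to -0.61. Then 2 members (Fosb and Ier2) were 2-fold higher on plate B, against 20.7% of all genes, and 1 on plate A, against 33.4%. The direction between basal plates thus depended on the scaling. Between the luminal plates 0 members were 2-fold higher on plate C and 3 on plate B, against 24.6% and 15.4% of all genes. These were Junb (114 CPM on plate C, 381 on plate B, ratio -1.73), Jund (30.4 and 66.2, -1.10) and Dusp1 (95.9 and 372, -1.95). Fos followed at -0.91. Without luminal cell 8 there were 2, with Dusp1 at -0.77. Plate A held basal and plate C luminal cells alone, so plate and population cannot be told apart there.

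Most cells carried most of the set. At 50000 reads a basal cell had reads of 2 to 10 members with a median of 7, and a luminal cell 4 to 10 with a median of 8. At least 8 members were found in 30 of 72 basal and 43 of 76 luminal cells, and all 10 in 2 basal and 11 luminal cells. Basal plate B was lowest, with a median of 6 and at least 8 members in 6 of 22 cells. It also held cells with fewer genes, a median of 1576 at 50000 reads against 2918 on basal plate A, 3225 on luminal plate B and 3438 on plate C.

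The summed level of the 10 members in a cell ran widely, from 260 through a median of 4240 to 32960 CPM in basal cells and from 440 through 5360 to 52660 CPM in luminal cells. The plate medians were 4010 and 4440 CPM in basal cells and 3620 and 5570 CPM in luminal cells (plates B and C), so the luminal plate with the higher read share, plate B with 1.01% against 0.691%, had the lower median cell. The highest cell was luminal cell 8, with 23760 CPM of Fos, 12340 of Atf3, 5020 of Dusp1 and 4780 of Jun, and all 10 members detected. Basal cell 25 followed with 32960 CPM, led by Fos (16420 CPM). Basal cell 66 had 25620 CPM, of which 19640 were Egr1, with no Atf3 read. The lowest cells were basal cell 29 (260 CPM, Fos and Junb alone), basal cell 70 and luminal cell 13 (440 CPM each), the last with 75.5% mitochondrial reads. Most genes were more uneven than the members. The 8 highest cells held a median of 50.8% of a member's summed CPM in basal cells (9 members of at least 20 CPM), where the median over all 6232 genes of that level was 81.9%, and 43.1% against 70.5% over 6873 genes in luminal cells. The genes were not matched on level.

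Joint variation was described by Spearman's rho over cells for the 45 pairs of members. The points share chips, plates and amplification, and no p is given. In luminal cells 43 of 45 pairs were above 0 with a median of 0.24, where the median of all pairs of 5717 genes was 0.07 and 91.9% of those pairs lay below the members' median. Fos with Egr1 (0.56), Fos with Fosb (0.54), Fosb with Atf3 (0.50) and Fosb with Egr1 (0.50) were the highest. In basal cells 35 of 45 pairs were above 0 with a median of 0.15, where all pairs of 4326 genes had 0.10 and 66.3% of them lay below. The highest were Fosb with Jun (0.50) and Jun with Egr1 (0.45). Fos with Egr1, the leading luminal pair, had 0.21 in basal cells. The difference between populations was not tested. Within plates the medians were 0.11 on basal plate A, 0.14 on basal plate B, 0.23 on luminal plate B and 0.23 on luminal plate C. All pairs of genes had 0.06, 0.07, 0.06 and 0.08 there, and 62.5%, 61.7%, 77.7% and 84.4% of them lay below the members' median.

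Each member was then set against the sum of the other 9. In luminal cells rho was 0.66 for Fosb, 0.63 for Egr1, 0.59 for Fos, 0.47 for Atf3 and 0.43 for Jun, and 0.41 for Nr4a1, 0.35 for Junb and 0.23 for Ier2. Jund (0.07) and Dusp1 (0.0047) were lowest. In basal cells Egr1 had 0.40, Jun 0.37, Ier2 0.32 and Fosb 0.29. On basal plate A these were 0.32, 0.15, 0.11 and 0.08, and on plate B, with 22 cells, 0.52, 0.68, 0.69 and 0.66. Over all basal cells Jund (-0.04) and Dusp1 (-0.09) were again the lowest. Dusp1 with Fosb was the lowest basal pair at -0.29, set by plate A (-0.44) with 0.04 on plate B. On luminal plate B Dusp1 had 0.33 and on plate C -0.18.

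**Figure D4:**
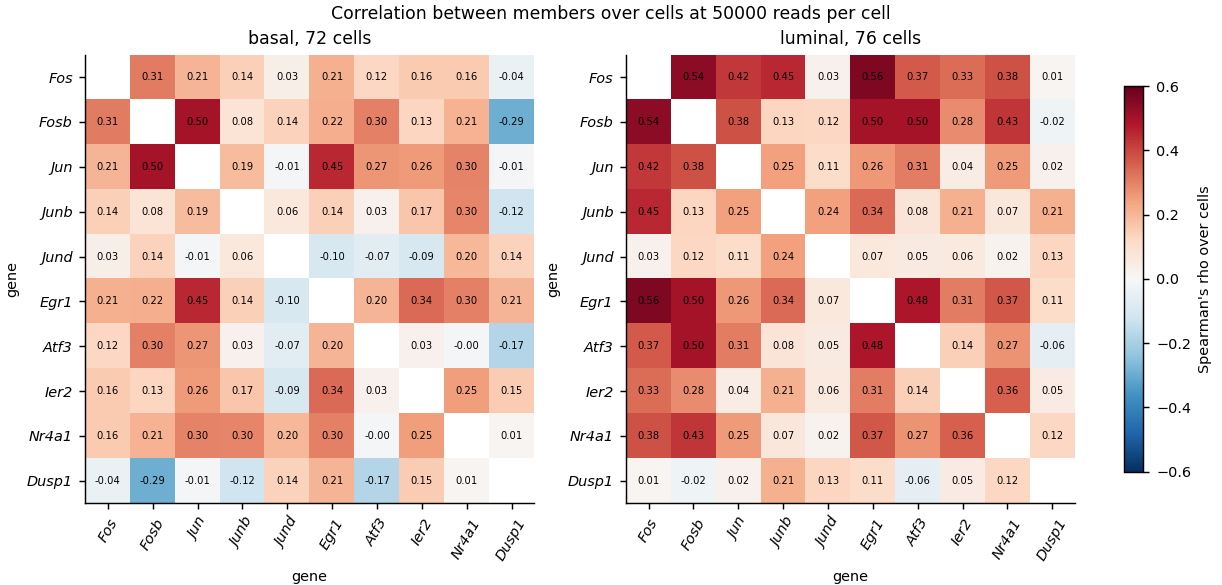
Spearman's rho over 72 basal and 76 luminal cells for each pair of the 10 genes, from log2(CPM + 1) at 50000 reads per cell, with the value printed in each square. The Fos, Fosb, Egr1 and Atf3 squares of the luminal panel reach 0.37 to 0.56, and the lowest square of all is Fosb with Dusp1 in basal cells, at -0.29.

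The summed member level was set beside measures of cell state over the same cells. With the 46 other immediate early genes listed for comparison, rho was 0.47 in basal and 0.51 in luminal cells, and 0.58, 0.29, 0.56 and 0.45 within basal plates A and B and luminal plates B and C. The 12 heat shock genes encode chaperones, of which Hspa1a and Hspa1b are classic targets of the heat shock factor HSF1, Hspa8 and Hsp90ab1 are made in resting cells and Hspa5 belongs to the endoplasmic reticulum. Hsp90ab1 (3638 CPM), Hspa5 (1367) and Hspa8 (1108) led their basal sum, while Hspa1a (10.9) and Hspa1b (23.0) were low. With that sum rho was 0.03 in basal and 0.11 in luminal cells. Within plates that relation had no steady sign, at 0.25 and -0.28 on basal plates A and B, 0.22 on luminal plate B and -0.01 on plate C. Among basal cells high in members, cell 66 (25620 CPM) had the highest basal heat shock sum, 22700 CPM, and cell 82 (15480 CPM) the lowest, 1260 CPM. With the mitochondrial share of reads rho was 0.07 and 0.15, and with genes detected -0.14 and -0.0010. With total reads it was -0.25 in basal and 0.07 in luminal cells, and 0.58 on luminal plate B against -0.18 on plate C.

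**Figure D5:**
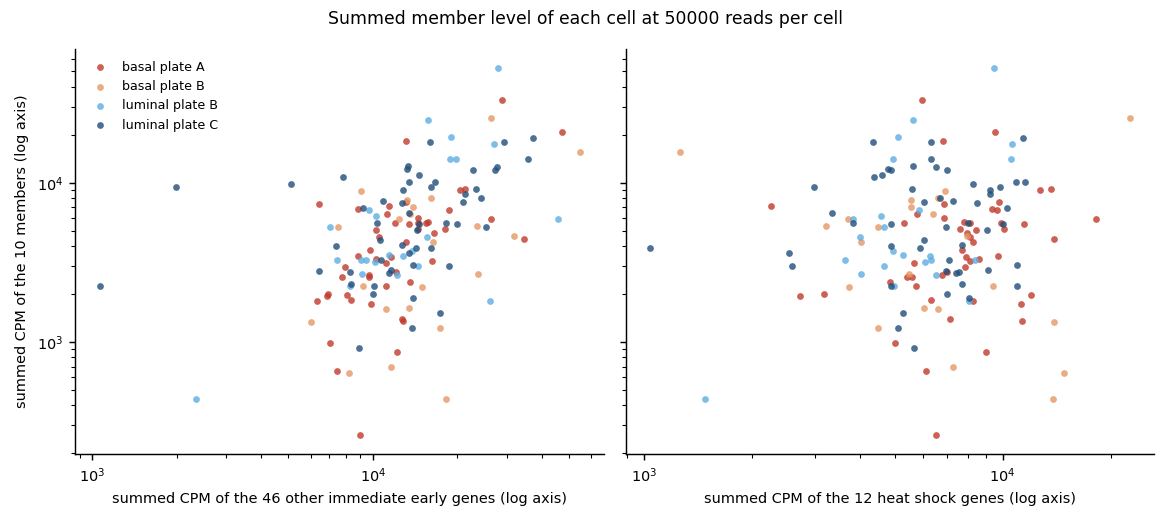
Summed CPM of the 10 members in each of the 148 cells at 50000 reads, against the summed CPM of the 46 other immediate early genes (left) and of the 12 heat shock genes (right), on log axes, coloured by population and plate. The left cloud rises to the right (rho 0.47 in basal and 0.51 in luminal cells) and the right one has rho of 0.03 and 0.11.

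Of the 46 other immediate early genes, all of which passed the filter, 10 were at least 2-fold higher in luminal and 10 in basal cells, with a median ratio of -0.28, where 28.4% and 18.3% of all genes were past those limits. Furthest towards basal cells, among genes of at least 20 CPM and the same direction on plate B, were Arc, an activity-regulated cytoskeletal gene (378 CPM basal, 20.3 luminal, ratio -4.15), and Nr4a2, the paralog of Nr4a1 (332 and 19.7, -4.004). Egr2, the paralog of Egr1, followed with 110 and 21.8 CPM (-2.29), then Ccn2, a matricellular growth factor (-2.17), and Cebpb, a leucine zipper factor (-2.04). Furthest towards luminal cells were Nfkbia, the NF-kB inhibitor (329 and 1209 CPM, 1.88), Gadd45g (104 and 382, 1.86), the NOTCH target Hes1 (53.8 and 162, 1.57), Srf (25.7 and 70.6, 1.42) and Klf6 (934 and 2258, 1.27).

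In the EGR family Egr1 was at -0.22 (0.02 on plate B), Egr2 at -2.29 and Egr3 at -1.24 (0.07 without top cells), and Egr4 had 16 basal and 2 luminal reads in all. Nr4a1 was at 0.63 and Nr4a2 at -4.004, and Nr4a3 had under 1 CPM in both. Among FOS genes Fos was at 1.28 and Fosl2 at -0.83 (249 and 139 CPM), and Fosl1 was low, with 11.4 and 17.5 CPM. Among MAP kinase phosphatases Dusp6 was higher in basal cells (498 and 177 CPM, -1.48), and Dusp4 (3.42 and 17.3 CPM, 2.05) and Dusp5 (3.59 and 16.3, 1.91) were low but higher in luminal cells.

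Of the 12 heat shock genes 2 were at least 2-fold higher in luminal cells (Hspa1a and Hspa1b) and 1 in basal cells (Hsph1), with a median of -0.34. On plate B none was 2-fold higher in basal cells, against 17.2% of all genes, and Hsph1, at -1.22 over all plates, was at 0.12. Hspa1a and Hspa1b are near-identical and the counting could split their reads, so either value is uncertain, and without the top cells Hspa1a was at -0.20. Of 21 kinases and factors that act upstream of immediate early genes, 4 were past 2-fold towards luminal cells (Mapk9, which encodes JNK2, at 4.29, Rps6ka5 at 1.84, Mapk3 at 1.34 and Map2k2 at 1.09) and 3 towards basal cells (Elk3 at -3.22, Egfr at -3.07 and Elk1 at -1.91), with a median of -0.43. Of these, Egfr turned to 0.19 on plate B, where the medians of the upstream and heat shock lists were 0.41 and 0.09. These lists were counted with library totals alone, by which 28.4% of all genes were at least 2-fold higher in luminal and 18.3% in basal cells.

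Outside the members, the genes whose levels followed the summed member level most closely were ranked by the mean rho over the 4 sets of population and plate, among 3805 genes found in at least 20% of cells of both populations. The median of all was -0.02. Zfp36, which encodes an RNA-binding protein that destabilises messages of the early response, was first at 0.45 (0.26 and 0.49 on basal plates A and B, 0.68 and 0.36 on luminal plates B and C). Ccnl1 (0.32), Btg2 (0.32), Camsap2 (0.30), Klf6 (0.30), Klf4 (0.28), Eif5 (0.28) and Arhgap42 (0.27) followed. Of the 32 other immediate early genes compared, 11 were among the 50 nearest, and their median was 0.13.

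Within the luminal cells, markers of luminal progenitors (LP) and of mature luminal cells (ML) were counted, 10 genes each, and the ML share of the detected markers was cut at 25% and 75%. These are ranges of a score and not cell types, and 12 cells lay within 5 points of a limit. The median summed level was 3920 CPM in 5 cells of the LP range, 4810 CPM in 42 cells between, and 7420 CPM in 29 cells of the ML range. All 3 ranges overlapped, the first spanning 1880 to 8480 CPM and the last 440 to 52660 CPM. Over all luminal cells, Spearman's rho between the summed level and the number of ML markers detected was low, at 0.18. Within plate B alone it fell to -0.08, against 0.26 within plate C. For the number of LP markers rho was -0.06 over all luminal cells. Among the cells of the LP range, luminal cells 45 and 81 had 981 and 1117 genes at 50000 reads. On plate B, which held no cell of the LP range, the medians were 3480 and 6220 CPM between and in the ML range, and on plate C 5560 and 8560 CPM. Single members shared that order only in part. Summed over cells, Fos (1262, 2086 and 3952 CPM), Fosb, Junb, Atf3 and Nr4a1 rose through the 3 ranges. Egr1 (300, 1739 and 1224 CPM), Jun (951, 352 and 793 CPM), Jund, Ier2 and Dusp1 did not. The sums of the ML range include luminal cell 8, which had 25081 CPM of Fos. By cell medians Fosb, Junb, Jund and Atf3 rose in that order, while Fos (1597, 1196 and 1499 CPM) and the others did not.

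Markers of other cell types were counted in the same cells, although the sort removes CD31+ and CD45+ cells. Any read at full depth counted, and the limit was 4 of 10 markers. Endothelial markers reached it in 6 basal cells, all on plate B, and 6 luminal cells, all on plate C. Fibroblast markers reached it in 18 and 22, and immune markers in 0 of either. Thinned to 50000 reads, fewer cells reached the limit for endothelial and for fibroblast markers. Basal cell 8, for example, fell from 6 fibroblast markers to 3. The cells at the limit below are those at full depth. Of the immune markers 4 were at 0 in all basal cells and 1 in all luminal cells, while each endothelial and fibroblast marker had a read in some cell. The summed marker level per cell ran from 0 to 10300 CPM in basal and to 2380 CPM in luminal cells for endothelial genes, and to 31160 and 36260 CPM for fibroblast genes, several of which basal cells express themselves. The 22 basal cells at the limit had a median summed member level of 4690 CPM against 3990 CPM in the other 50, and the 23 luminal cells 5580 against 5240 CPM in the other 53. The basal plates went opposite ways, with 3120 CPM in 14 cells at the limit against 4520 CPM in 36 others on plate A, and 6140 CPM in 8 against 2230 CPM in 14 on plate B. The part of such cells in the member levels was not tested beyond leaving them out, which gave a members' median ratio of 1.05 in place of 1.01.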

How the data were processed

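RNA of 96 basal and 90 luminal cells was sequenced on the Illumina HiSeq after Nextera XT preparation. The authors aligned read pairs to mm10 with Subread, assigned these by featureCounts under the RefSeq annotation built into Rsubread, and deposited raw counts per gene and cell, with the exon length of each gene. Strand setting and treatment of multi-mapping reads are not given in the sources used here. The series-wide table repeats the per-cell counts and was not used. Symbols were matched by Entrez identifier (25275 of 27179, the rest holding 1.94% of counts) in RefSeq for GRCm38.p6, the assembly of mm10.

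After 15 mitochondrial and 125 ribosomal protein genes were removed, basal cells with at least 50000 reads and 1000 genes and luminal cells with at least 100000 reads and 1500 genes were kept, as the study did. Genes had at least 1 CPM in at least 3 cells. Depth was 3105 to 3784407 counts per cell. Counts were summed per population. Cells were thinned without replacement to 50000 reads for shares and correlations. No pair of cells looked like a repeated library (smallest chi-square per gene 47.4). Doublets were not called by a program, since the study inspected capture sites by microscope. Intervals are exact Poisson or Clopper-Pearson at 95%. Python 3.11.15, numpy 2.4.6, scipy 1.17.1 and edgeR 4.0.16 (TMM factors) were used, and the steps were tested on simulated data.

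The members, lists and rules were chosen with earlier results of these data known. Named genes were the 10 members, genes of the fixed lists (of the other immediate early list, the 5 furthest each way with at least 20 CPM and the same direction on plate B) and the 8 genes nearest to the summed member level. The limits of 10 and 100 CPM, and the paralogs of members given as families, were chosen after the values were seen. Alternatives covered scaling, thresholds, thinning, plates and single cells. Leaving out luminal cell 8, cells over 50% mitochondrial or the 3 cells at odds with their lineage markers was added after the data were seen.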

Additional observations from a re-analysis of the deposited data

Results flagged for a closer look

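Wells below the coverage thresholds entered no comparison, yet they held reads of the 10 members above the limit that a count of 0 allows, which is what brought them here. In 24 basal wells of 2306 to 37461 reads the summed level was 2471 CPM (exact Poisson 95% interval 2286 to 2667), from 427 to 6600 CPM per well with a median of 1773, where 3 counts over the group would be 11.3 CPM. In 14 luminal wells of 4913 to 84573 reads it was 6058 CPM (5822 to 6300), from 407 to 25398 CPM with a median of 4630, where 3 counts would be 7.27 CPM. No such well was without a member read. Junb led the luminal wells at 3132 CPM and Fosb the basal wells at 797 CPM, while Egr1 stood at 82.4 and 700 CPM.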

How the results depend on the processing

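No paired analysis was possible because cell numbers in the labels only count cells and no mouse is named, and no result comes from a test. Of the alternatives for values over the whole set, 151 moved by less than the limit set for them and 49 by more, and no member's ratio past 2-fold reversed. Genes of the other lists were looked at on plate B and without top cells alone, and Egfr, Hsph1 and Klf2, past 2-fold over all plates at -3.07, -1.22 and 1.03, were at 0.19, 0.12 and -0.38 on plate B. The cause of these shifts was not tested. The members' median ratio of luminal over basal (1.01) was 0.91 with 10 CPM added, 0.79 with TMM and 0.83 with median-of-ratios factors, 0.88 from the mean of cells, 1.05 without cells holding markers of another type, 1.33 on plate B and 0.93 without luminal cell 8. Between basal plates the median (0.06) was -0.61 with TMM and -0.59 with median-of-ratios factors. Each put 2 members 2-fold higher on plate B in place of 0, against 20.7% and 20.5% of all genes. From the mean of cells, or without the 3 cells at odds with their lineage markers, 1 member was. By library totals with every cell, 13.6% of all genes were 2-fold higher on plate B and 41.7% on plate A. Without cells of other markers the members' median was 0.55, with 2 members 2-fold higher on plate A in place of 1. Between luminal plates the median (-0.39) was -0.34 with mitochondrial and ribosomal genes kept, -0.49 and -0.44 with those factors, -0.32 from the mean of cells, -0.20 without top cells, -0.52 without cells of other markers and -0.35 without luminal cell 8. The mean of cells and leaving out top cells each put 1 member 2-fold higher on plate C in place of 0. By library totals with every cell, 24.6% of all genes were. The median number of members detected was 7 in basal and 8 in luminal cells, 9 and 9 without thinning, 8 and 9 at 100000 reads, and 5 and 6 with at least 5 reads asked. The median share of cells was 74.3% and 80.9%, 90.3% and 98.0% without thinning, 81.4% and 86.8% at 100000 reads, 47.9% and 62.5% with at least 5 reads, and 77.4% in luminal cells without those of other markers. The median rho was 0.15 in basal cells and 0.11 on plate A, and 0.24 in luminal cells and 0.20 by Pearson. The Spearman correlation of the summed level in basal cells, on plates A and B, was -0.24 and 0.077 with genes detected, -0.063 and 0.23 with mitochondrial share and 0.25 and -0.28 with heat shock. In luminal cells on plates B and C it was 0.58 and -0.18 with total reads and 0.22 and -0.011 with heat shock. Over 19 other thinning draws the median rho ran from 0.12 to 0.19 in basal and 0.20 to 0.27 in luminal cells. Levels near 20 CPM per cell are at the limit of the thinned depth.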
